A study of Mus musculus with 26 samples.

Results

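Arachidonic acid (AA) was set against vehicle after 1 day in mouse intestinal organoids, small epithelial structures that grow in a gel from isolated crypts. Every expressed gene was a candidate. The comparison rests on 6 of the 26 libraries of the series, chosen by their labels alone: 3 libraries of organoids given AA at 25 µM for 1 day and 3 of organoids given vehicle for 1 day. The other groups used here are PGE2 (50 nM) at day 1 with 3 libraries, AA and vehicle at day 3 with 3 libraries each, and AA and vehicle at day 6 with 4 libraries each. The treatment protocol names PGE2 and the series' design text a dimethyl analogue of it. Neither source settles which was added. All groups shared 1 strain, C57BL/6, the gel (Matrigel) and the medium. That medium held recombinant EGF, the BMP antagonist Noggin, R-spondin and CHIR-99021, both of which raise Wnt signalling, the kinase inhibitor Y-27632, N-acetyl-L-cysteine, and the B27 and N2 supplements. The vehicle libraries thus also come from cells given an EGF receptor ligand, agents that raise Wnt signalling and a kinase inhibitor. The labels give no age or sex of the mice, no intestinal segment and no number of mice and no word on whether replicates come from different cultures, so p-values measure only the spread between these libraries.

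AA is a polyunsaturated fatty acid held in membrane phospholipids. Phospholipases release it, acyl-CoA synthetases and lysophospholipid acyltransferases put it back, and cyclooxygenases turn it into prostaglandins, of which PGE2 is the main one in the gut. In intestinal epithelium prostaglandin signalling is known for its part in crypt repair after injury, and polyunsaturated fatty acids in general are known to lower the expression of desaturase and lipid synthesis genes.

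The 3 AA libraries held 14602531, 13484015 and 14023100 counts, and the 3 vehicle libraries 14110917, 12930535 and 12894671. Epithelial markers were abundant in all 6: the sum of Epcam, Cdh1, Vil1, Krt8, Krt18, Krt19, Cdx2 and Cldn7 was 10353 to 10677 CPM (counts scaled to the library total) with AA and 6790 to 7652 CPM with vehicle. Of the 8, 5 were called higher and 1, Cdx2, lower. Markers of other cell types were near 0. The 10 fibroblast and smooth muscle markers summed to 1.04 to 1.51 CPM with AA and 1.16 to 1.39 CPM with vehicle, with Lum at 0 in all 6 libraries. The 9 immune markers summed to 1.11 to 1.43 and 0.387 to 0.850 CPM (Cd3e at 0, and Csf1r called higher with 20 counts in all with AA and 4 with vehicle), the 6 endothelial markers to 2.00 to 2.57 and 1.24 to 1.71 CPM (Cdh5 and Kdr at 0), and the 6 neural and glial markers to 1.07 to 1.71 and 2.25 to 3.56 CPM (Sox10 at 0), each pair with AA before vehicle. Of the 4 mesothelial markers, Wt1 was at 0, and their sum of 434 to 466 CPM with AA and 86.1 to 91.8 CPM with vehicle was almost all Msln, which fetal-like intestinal epithelium also makes. The share of mitochondrial ribosomal RNA was 8.52% to 9.43% with AA and 9.15% to 10.3% with vehicle, the other mitochondrial genes 1.60% to 1.83% and 1.84% to 2.13%, and the rRNA-like loci 8.47% to 10.1% and 7.58% to 8.78%. The number of genes with at least 1 count was 21187 to 21479 with AA and 20378 to 20652 with vehicle.

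The response at 1 day was broad, and its large changes were mostly rises. By edgeR's quasi-likelihood test with Benjamini-Hochberg adjustment at 0.05, 6197 of 14850 genes tested (41.7%) were called, 2894 higher (19.5%) and 3303 lower (22.2%). No AA library overlapped any vehicle library in 7959 of the genes tested (53.6%), 6014 of them called and 1945 not. Most of these changes were small: the median called rise was 0.56 and the median called fall -0.33 on the log2 scale, while the median over all genes tested was -0.03. With the further demand of a change of at least 2-fold, 836 genes were higher (5.63%) and 233 lower (1.57%). At a log2 change of at least 2 there were 213 higher and 16 lower genes, and at 3 there were 34 higher and 1 lower. The large rises were concentrated among weakly expressed genes. Of the 9181 genes with a mean of at least 10 CPM in either group, 270 were at least 2-fold higher and 65 at least 2-fold lower, against 566 and 168 of the 5669 genes below that level. The sums over all called genes were closer to balance, a gain of 66975 CPM over the genes that rose, while those that fell decreased by 59206 CPM. A narrow interval, with the whole 95% interval of the change inside 1.2-fold either way, was reached by 3339 of the 9181 genes with at least 10 CPM (36.4%). Mki67, the marker of cycling cells, was not called (873, 863 and 848 CPM with AA, 961, 965 and 869 CPM with vehicle, log2 fold change -0.11 ± 0.06, SE).

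**Figure D1:**
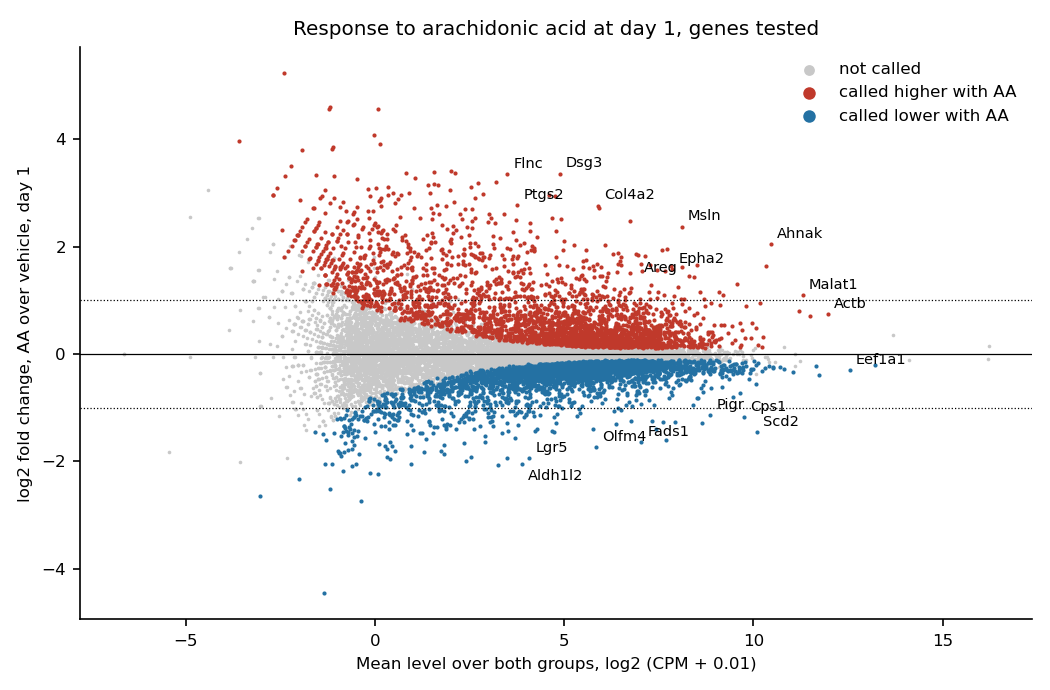
Each point is 1 of the 14850 genes tested, with its mean level over the AA and vehicle libraries of day 1 on the x axis (log2 of CPM plus 0.01) and its fitted log2 fold change, AA over vehicle, on the y axis; red and blue points were called higher and lower, grey ones were not called, and dotted lines mark 2-fold. Points beyond the upper dotted line (836 called genes) outnumber those beyond the lower one (233), and the most abundant genes lie close to 0.

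Predicted genes (Gm, Rik and clone names), pseudogenes and mitochondrial genes were left out of the rankings of single genes. Among the other genes with at least 10 CPM the largest rise was that of Dsg3 (ENSMUSG00000056632.8), a desmosomal cadherin of stratified epithelium. Its level was 57.9, 51.3 and 52.1 CPM in the 3 AA libraries, against 4.86, 5.46 and 5.39 CPM in the 3 vehicle libraries, a 10.3-fold difference (log2 fold change 3.36 ± 0.09, SE, adjusted p = 9.7e-23). No AA library overlapped a vehicle library, which the choice of these genes required. Flnc, an actin-crosslinking filamin best known from muscle, stood at 21.2, 19.8 and 20.6 CPM with AA and 2.21, 1.84 and 1.95 CPM with vehicle (3.35 ± 0.11). Tnni2, a troponin subunit of fast muscle, stood at 10.98, 12.9 and 11.9 CPM with AA against 1.86, 1.15 and 0.859 CPM with vehicle (3.18 ± 0.19). Tgm1, the transglutaminase that crosslinks the cornified envelope of skin, had 38.9, 44.8 and 44.1 CPM with AA and 5.29, 4.92 and 6.09 CPM with vehicle (2.97 ± 0.09). Dsg3 and Tgm1 belong to stratified epithelium, and Flnc and Tnni2 to muscle. Myh11, Des and Acta2, from the fibroblast and smooth muscle markers, held at most 5 counts over the 3 AA libraries. A marker list for skeletal muscle was not examined. Matrix genes made up another share. Loxl4, a lysyl oxidase that crosslinks collagen, rose by 3.11 ± 0.19. The paired collagen IV chains, which form the network of basement membranes, rose too. Col4a2 had 105, 100 and 105 CPM with AA against 14.9, 16.1 and 14.5 CPM with vehicle (2.77 ± 0.07). Col4a1 had 108, 104 and 101 CPM with AA against 15.3, 16.99 and 15.4 CPM with vehicle (2.72 ± 0.06). Plat, tissue plasminogen activator, reached 46.0, 46.8 and 49.5 CPM with AA, against 6.07, 5.92 and 6.41 CPM with vehicle (2.95 ± 0.11). The remaining 4 were Serpinb9b, an intracellular serpin of a multigene family whose reads may be shared with close copies (3.21 ± 0.16), Tm4sf1, a membrane protein of the tetraspanin-like group (2.98 ± 0.16), Dok2, an adaptor of receptor tyrosine kinases (2.92 ± 0.17), and Ptgs2.

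Ptgs2, the inducible cyclooxygenase and so the enzyme that commits AA to prostaglandins, had 21.9, 26.1 and 22.9 CPM in the AA libraries and 3.29, 4.15 and 2.89 CPM in the vehicle libraries, a 6.85-fold rise (log2 fold change 2.78 ± 0.12, adjusted p = 1.8e-17).

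The largest falls were smaller than the largest rises and came from transport, one-carbon metabolism, lipid desaturation and progenitor genes. Slc16a12, a creatine transporter, stood at 3.18, 3.09 and 4.68 CPM with AA, against 14.2, 13.9 and 17.7 CPM with vehicle (log2 fold change -2.06 ± 0.15, SE). Aldh1l2, a mitochondrial enzyme of folate metabolism, had 5.80, 5.42 and 5.97 CPM with AA and 25.1, 24.4 and 21.5 CPM with vehicle (-2.04 ± 0.13, adjusted p = 2.0e-13). Progenitor genes followed: Lgr5 and Olfm4, known from crypt base stem cells, fell by 1.94 and 1.73, and Neurog3 and Insm1, transcription factors of endocrine progenitors, by 1.93 and 1.52. In RNA from whole organoids, fewer cells of a type and less RNA per cell cannot be told apart. The desaturases Fads1, Scd1 and Scd2 fell by 1.63, 1.59 and 1.46, with Scd2 at 607, 578 and 558 CPM with AA and 1613, 1618 and 1556 CPM with vehicle. Scd1 and Scd2 are close copies, and no source used here states how reads that match both were counted. The other 3 were Dpysl5, a microtubule regulator known from neurons (-1.64 ± 0.14), Vav3, a guanine nucleotide exchange factor (-1.57 ± 0.11), and Chac1, which degrades glutathione and is a target of the stress factor ATF4 (-1.47 ± 0.13). The choice of these genes, too, required groups that do not overlap.

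**Figure D2:**
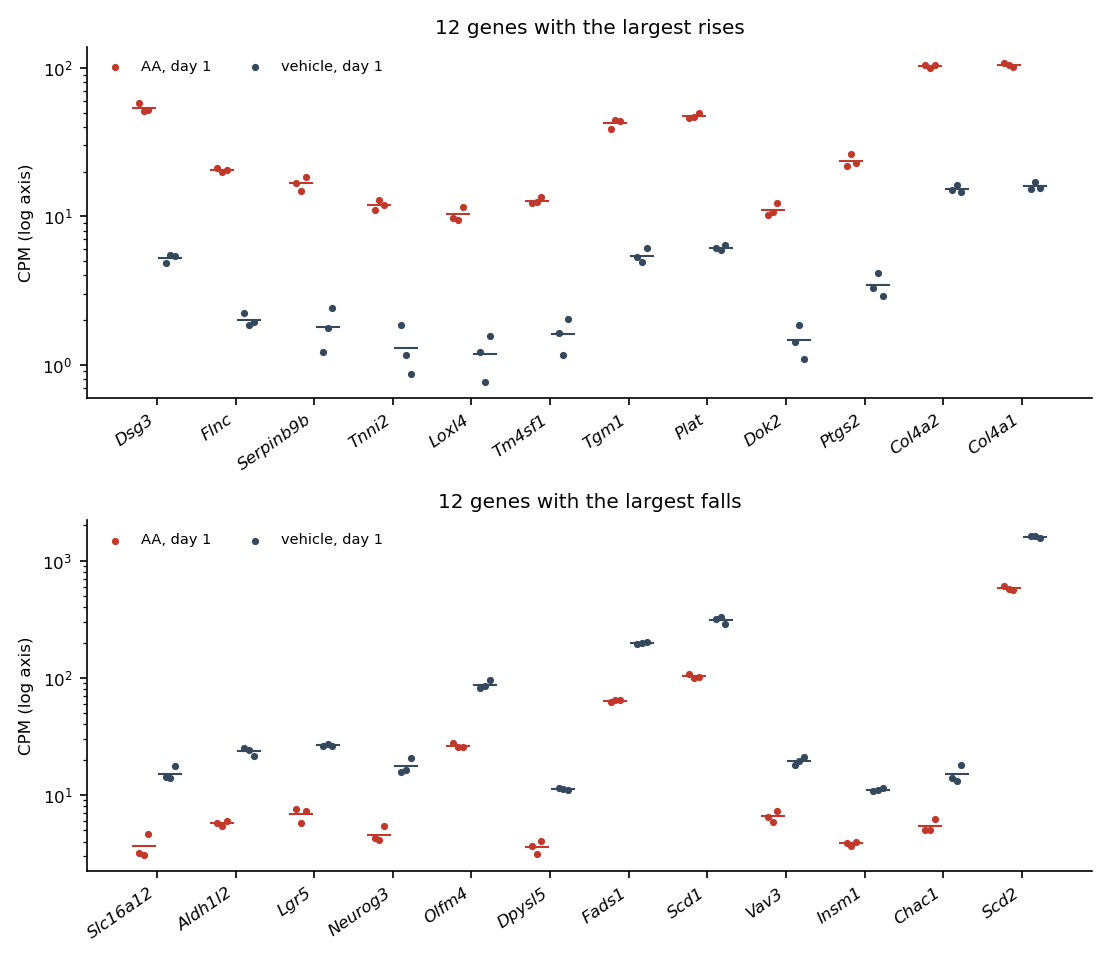
CPM on a log axis for the 12 largest rises (upper panel) and the 12 largest falls (lower panel) among genes with a mean of at least 10 CPM in either group; each point is 1 library, AA at the left of vehicle for each gene, and the short line is the mean of 3. Predicted genes, pseudogenes and mitochondrial genes were left out. No AA point overlaps a vehicle point of the same gene, from Dsg3 (10.3-fold higher) to Scd2 (558 to 607 CPM with AA).

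To show sequence beside the genes with the largest changes, promoter windows from RefSeq (GRCm38.p6), each reaching from 250 bases before to 50 bases after a transcription start, were searched on both strands for 11 motifs: AP-1 (TGANTCA), CREB (TGACGTCA), TEAD (ACATTCC), NF-kB (GGGANTTCC), TCF (CTTTGAT), SREBP (TCACNCCAC), NRF2 (TGACNNNGC), the E-box (CACGTG), the TATA box (TATAAA), the CCAAT box (CCAAT) and the GC box (GGGCGG). Matches were counted for each motif on its own, so 1 stretch could count for more than 1 motif. A window was available for 10173 of the genes tested. The AP-1 motif stood in 12% of the 700 windows of genes at least 2-fold higher and in 7.53% of the 186 windows of genes at least 2-fold lower, beside 5.36% of the 12995 windows of all genes tested and 7.81% of all 32851 windows. The TEAD motif stood in 5.43% and 2.15% of the windows of higher and lower genes, beside 2.93% of the windows of genes tested. The CREB motif stood in 2% and 1.08%, beside 3%, the NF-kB motif in 1.57% and 2.15%, beside 2.29%, and the TCF motif in 2.71% and 1.61%, beside 2.66%. The NRF2 motif stood in 15.7% and 15.1%, beside 14.4%, the E-box in 5.57% and 8.06%, beside 9.88%, and the SREBP motif in 0.571% and 0%, beside 1.12%. The boxes differed as well: the GC box stood in 47.4% and 55.9%, beside 60.9%, the TATA box in 11.6% and 12.9%, beside 7.74%, and the CCAAT box in 31.1% and 45.2%, beside 38%. These shares are descriptions without a test, and a match is not shown to be a bound site. The sequences, 5′ to 3′ on the gene's strand, are those of the first 3 of the largest rises and the first 3 of the largest falls whose window held a motif other than the 3 boxes. Genes with larger changes were passed over where they had no such motif or no window to search. Capitals mark those motifs. Serpinb9b (chr13:33027164-33027463, plus strand) and Tgm1 (chr14:55713443-55713742, minus strand) each hold 1 TCF motif, and Loxl4 (chr19:42612757-42613056, minus strand) holds 1 NF-kB motif. Slc16a12 (chr19:34747279-34747578, minus strand) holds an E-box and 2 NRF2 motifs, Olfm4 (chr14:80000052-80000351, plus strand) 1 NF-kB motif, and Vav3 (chr3:109573757-109574056, plus strand) 1 AP-1 and 1 NRF2 motif.
Serpinb9b: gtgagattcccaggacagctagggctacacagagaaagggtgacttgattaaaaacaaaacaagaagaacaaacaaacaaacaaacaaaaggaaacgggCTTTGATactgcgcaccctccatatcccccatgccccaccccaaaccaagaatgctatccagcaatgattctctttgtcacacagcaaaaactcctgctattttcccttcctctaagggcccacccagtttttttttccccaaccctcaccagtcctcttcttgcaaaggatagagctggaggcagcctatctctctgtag
Loxl4: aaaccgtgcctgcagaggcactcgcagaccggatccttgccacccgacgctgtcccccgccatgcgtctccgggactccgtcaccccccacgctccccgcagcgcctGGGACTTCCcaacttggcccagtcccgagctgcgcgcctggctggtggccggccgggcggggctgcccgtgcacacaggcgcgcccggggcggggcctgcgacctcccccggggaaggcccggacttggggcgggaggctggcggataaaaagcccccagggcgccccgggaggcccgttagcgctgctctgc
Tgm1: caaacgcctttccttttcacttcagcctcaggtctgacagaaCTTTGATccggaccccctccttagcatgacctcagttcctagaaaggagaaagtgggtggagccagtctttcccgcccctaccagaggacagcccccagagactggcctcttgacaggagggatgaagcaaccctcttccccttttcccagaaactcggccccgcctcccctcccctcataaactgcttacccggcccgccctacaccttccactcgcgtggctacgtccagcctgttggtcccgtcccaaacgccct
Slc16a12: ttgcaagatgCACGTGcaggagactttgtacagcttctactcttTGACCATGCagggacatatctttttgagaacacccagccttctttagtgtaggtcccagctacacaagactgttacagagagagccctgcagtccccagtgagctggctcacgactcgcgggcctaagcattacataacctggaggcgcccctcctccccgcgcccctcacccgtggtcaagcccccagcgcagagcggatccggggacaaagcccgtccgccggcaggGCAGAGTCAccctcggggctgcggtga
Olfm4: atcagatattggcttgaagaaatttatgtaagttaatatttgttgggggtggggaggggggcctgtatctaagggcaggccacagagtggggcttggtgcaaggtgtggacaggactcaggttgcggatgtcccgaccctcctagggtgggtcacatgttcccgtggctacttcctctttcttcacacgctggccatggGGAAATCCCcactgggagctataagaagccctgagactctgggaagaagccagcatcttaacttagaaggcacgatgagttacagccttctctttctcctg
Vav3: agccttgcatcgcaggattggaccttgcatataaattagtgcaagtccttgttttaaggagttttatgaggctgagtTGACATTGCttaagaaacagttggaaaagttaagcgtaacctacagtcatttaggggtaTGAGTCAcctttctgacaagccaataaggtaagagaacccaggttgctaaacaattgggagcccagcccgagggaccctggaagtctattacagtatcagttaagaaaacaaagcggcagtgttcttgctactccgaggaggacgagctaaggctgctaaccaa

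Among the genes ranked, those that gained or lost the most reads were abundant ones of mixed function. The ranking leaves out the mitochondrial genes and the rRNA-like loci, whose shares are given above. CPM values are not corrected for gene length, so these shifts say how many reads moved, not how many transcripts. Actb, cytoplasmic actin, stood at 4963, 5043 and 5021 CPM with AA, against 2935, 2941 and 3081 CPM with vehicle (log2 fold change 0.75 ± 0.06, SE). Ahnak, a giant scaffold protein under the plasma membrane, had 2142, 2308 and 2334 CPM with AA and 559, 565 and 522 CPM with vehicle (2.04 ± 0.07). The nuclear noncoding RNA Malat1 (1.10 ± 0.09), the simple-epithelium keratins Krt8 (0.72 ± 0.07) and Krt19 (0.81 ± 0.06), the lipoprotein Apob (0.94 ± 0.07) and the membrane-binding Anxa2 (1.31 ± 0.06) also rose. Among the falls Eef1a1, the main elongation factor of translation, lost the most, with Scd2 next. Eef1a1 stood at 5395, 5375 and 5298 CPM with AA against 6352, 6394 and 6974 CPM with vehicle (-0.30 ± 0.06). Cps1, the first enzyme of the urea cycle, stood at 531, 526 and 527 CPM with AA against 1181, 1178 and 1203 CPM with vehicle (-1.17 ± 0.06). Eef2 (-0.22 ± 0.05), the small nuclear RNA Rn7sk (-0.33 ± 0.08), the chloride-loading cotransporter Slc12a2 (-0.55 ± 0.04), the serine-incorporation protein Serinc3 (-0.73 ± 0.05) and Hook1, a microtubule linker (-0.80 ± 0.05), fell too.

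The counts of the gene lists stand beside 19.5% called higher and 22.2% called lower over all genes tested. Growth factor signalling was described from its ligands inwards. Among 14 tested members of the EGF family list, 9 rose and 2 fell, with a median log2 fold change of 0.58, beside -0.03 over all genes tested. The ligand Areg, amphiregulin, had 186, 200 and 191 CPM with AA, against 53.4, 51.6 and 55.7 CPM with vehicle (log2 fold change 1.84 ± 0.06). Ereg, epiregulin, had 40.6, 43.6 and 42.9 CPM with AA against 12.6, 12.5 and 11.3 CPM with vehicle (1.80 ± 0.09). The ligand Hbegf (1.01 ± 0.07), the receptor Egfr (0.94 ± 0.04) and Errfi1, an inhibitor of that receptor (0.88 ± 0.05), rose as well, all 3 chosen after their values were seen. The 2 that fell, Lrig1 (-0.63 ± 0.05) and Lrig3 (-0.57 ± 0.06), encode membrane proteins, of which Lrig1 is a negative regulator of EGF receptors. Of 18 MAP kinase feedback genes, 10 rose and 4 fell. Dusp1, a phosphatase of MAP kinases, stood at 8.77, 11.1 and 9.86 CPM with AA and 2.00, 1.46 and 2.34 CPM with vehicle (2.35 ± 0.17). Dusp10, a phosphatase of the stress kinases, stood at 16.8, 16.7 and 15.2 CPM with AA against 3.36, 3.77 and 3.75 CPM with vehicle (2.16 ± 0.12). Etv5 (-0.74 ± 0.07) and Il17rd (-0.70 ± 0.12), known as targets of FGF signalling, fell. In the immediate early and AP-1 list 18 of 23 tested members rose and 0 fell (median 0.69), led by Ier3, an early stress response gene (1.93 ± 0.12), and Klf6, a Krüppel-like transcription factor (1.68 ± 0.06), at 195, 206 and 197 CPM with AA and 61.6, 62.8 and 62.4 CPM with vehicle. The AP-1 subunit Fosl1, chosen after its values were seen, had 21.5, 23.0 and 20.4 CPM with AA and 7.86, 6.92 and 7.19 CPM with vehicle (1.56 ± 0.10). The AA libraries were thus higher for ligands, receptor and immediate early genes at once, and 0 of the 23 immediate early genes were lower.

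Other signalling families gave mixed counts. In the cytokine and chemokine list 12 rose and 6 fell of 23, and Il33, an alarmin of epithelial nuclei, had 17.8, 17.8 and 18.6 CPM with AA, against 2.14, 3.00 and 3.83 CPM with vehicle (log2 fold change 2.60 ± 0.13). Il1rn, the antagonist of the interleukin-1 receptor, rose to 108, 105 and 113 CPM with AA, against 23.6, 27.7 and 28.7 CPM with vehicle (2.03 ± 0.09). Pthlh, parathyroid hormone-like hormone (-1.81 ± 0.28), and the death ligand Tnfsf10 (-1.33 ± 0.28) fell from low levels. Of 21 NF-kB feedback and defence genes, 16 rose and 1 fell, and 4 of the 21 had a mean below 1 CPM with vehicle. Duox2, an epithelial oxidase (1.82 ± 0.14), Nos2, inducible nitric oxide synthase (1.65 ± 0.10), and Tnfaip3, a feedback inhibitor of NF-kB chosen after its values were seen (1.23 ± 0.07), were higher. The 1 that fell was Pigr, which carries immunoglobulin A across the epithelium, at 307, 282 and 277 CPM with AA and 616, 622 and 666 CPM with vehicle (-1.14 ± 0.05). In the TGF-beta, activin and BMP list 13 rose and 8 fell of 34, of which 7 had a mean below 1 CPM with vehicle. Fst, an activin antagonist (3.41 ± 0.21), Bmp2 (2.48 ± 0.15) and the BMP target Id1, chosen after its values were seen (1.65 ± 0.10), rose. The ligands Bmp3 (-1.07 ± 0.10) and Bmp7 (-0.81 ± 0.12) fell. Notch genes leaned lower, with 4 rises and 12 falls of 22 (median -0.35). The ligands Dll1, at 27.8, 27.4 and 27.7 CPM with AA and 56.4, 56.3 and 54.9 CPM with vehicle (-1.02 ± 0.06), and Dll4 (-1.07 ± 0.11) fell, and the ligand Jag2 (0.82 ± 0.08) and the coactivator Maml2 (1.11 ± 0.25) rose. Atoh1, the secretory lineage factor that Notch represses, was chosen after its values were seen and fell as well (-0.78 ± 0.16). Wnt ligands, receptors and antagonists were mostly not called (3 higher and 6 lower of 26), but 5 of the falls and 1 of the rises were at least 2-fold. Of the 26, 6 had a mean below 1 CPM with vehicle. Lrp5, a Wnt co-receptor, rose (0.23 ± 0.05), and the weakly expressed Wnt9b (-2.04 ± 0.32) and Sfrp5, a secreted antagonist (-1.64 ± 0.34), fell.

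Guidance receptors split by member. Of 14 tested Ephs and ephrins, 6 rose and 4 fell. Epha2 had 331, 358 and 356 CPM with AA, against 116, 119 and 114 CPM with vehicle (log2 fold change 1.59 ± 0.05, adjusted p = 7.4e-22), and Epha4 rose by 1.22 ± 0.06, while the receptor Ephb4 (-0.73 ± 0.05) and the ligand Efna4 (-0.50 ± 0.11) fell. Of 20 semaphorins and plexins, 9 rose and 6 fell, with the ligands Sema3c (1.66 ± 0.06) and Sema6a (1.33 ± 0.11) higher and Sema7a (-0.67 ± 0.05) and Sema4c (-0.60 ± 0.13) lower.

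Genes that shape the cell's outside and its skeleton rose in large shares of their lists. In the laminin, collagen IV and basement membrane list 12 of 15 tested members rose and 1 fell, 9 of them at least 2-fold (median log2 fold change 1.10). Beside the collagen IV chains, Lama3, a laminin chain, rose by 1.96 ± 0.11, and Nid1, which links laminin to collagen, by 2.44 ± 0.10, both chosen after their values were seen. The 1 fall was Hspg2, perlecan (-0.53 ± 0.16), with 18.6, 20.4 and 18.7 CPM with AA and 30.6, 30.8 and 22.0 CPM with vehicle, a call lost without vehicle replicate 1 or without vehicle replicate 2. In the plasminogen and matrix protease list 19 rose and 2 fell of 25. Of the 25, 5 had a mean below 1 CPM with vehicle, and their entry to the test can rest on groups in which they were higher. For those 5 a rise is a description and not support for a direction. Adam8, a membrane metalloprotease, stood at 41.6, 43.7 and 44.2 CPM with AA, against 6.21, 7.30 and 8.91 CPM with vehicle (2.53 ± 0.08). Plaur, the urokinase receptor, chosen after its values were seen, stood at 134, 135 and 134 CPM with AA against 35.8, 37.4 and 35.8 CPM with vehicle (1.89 ± 0.05). Mmp7, matrilysin of Paneth cells (-0.67 ± 0.10), and the serine protease Tmprss4 (-0.25 ± 0.05) fell. Integrin and hemidesmosome genes gave 9 rises and 0 falls of 14, led by Plec, the linker of keratin to hemidesmosomes (1.11 ± 0.11), and Itgb6, an epithelial integrin chain, at 125, 135 and 134 CPM with AA and 60.7, 63.8 and 64.2 CPM with vehicle (1.06 ± 0.05).

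Inside the cell, 27 of 30 tested genes of the actin cytoskeleton rose and 0 fell (median log2 fold change 0.60), with Msn, moesin, which ties actin to the membrane, at 5.18, 4.97 and 4.32 CPM with AA and 0.786, 0.922 and 1.72 CPM with vehicle (2.08 ± 0.24). Flna, a filamin chosen after its values were seen, had 517, 540 and 542 CPM with AA and 235, 245 and 239 CPM with vehicle (1.15 ± 0.05).

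Desmosome and gap junction genes gave 14 rises and 1 fall of 16, with Gjb2, a connexin, lower (log2 fold change -0.54 ± 0.07). The desmosomal plaque protein Dsp, chosen after its values were seen, stood at 985, 948 and 965 CPM with AA and 711, 727 and 674 CPM with vehicle (0.46 ± 0.05). Claudins and tight junction genes gave 9 rises and 3 falls of 18. Cldn4, a barrier claudin, stood at 290, 303 and 304 CPM with AA, against 102, 98.6 and 107 CPM with vehicle (1.54 ± 0.07). Cldn18, known from stomach, rose by 1.91 ± 0.19 from a low level, and Cldn12 (-0.23 ± 0.06) and Cldn15, a pore-forming claudin of the small intestine (-0.21 ± 0.05), fell. Of 54 keratin genes 21 were tested, and 16 rose and 0 fell (median 1.43). Of the 21, 10 had a mean below 1 CPM with vehicle, and such genes could enter the test only through groups in which they were expressed, so this count is a description and not support for a direction. The most induced, Krt27 (1.38, 1.13 and 1.37 CPM with AA, 0.0714, 0.307 and 0 CPM with vehicle) and Krt16, a keratin of activated epidermis (2.39 ± 0.43), were weakly expressed. Krt23 and Krt7, a duct-type keratin, both chosen after their values were seen, reached 137 to 141 CPM and 717 to 779 CPM with AA, against 34.9 to 43.4 CPM and 324 to 360 CPM with vehicle. Annexins, which bind membranes when calcium rises, gave 8 rises and 0 falls of 12, with Anxa8 (2.01 ± 0.14) and Anxa1, at 323, 331 and 344 CPM with AA and 82.1, 83.0 and 92.9 CPM with vehicle (1.95 ± 0.08), in front. In the S100 list 6 rose and 2 fell of 11, among them S100a14 (1.43 ± 0.08) and S100a16 (1.03 ± 0.09) higher and S100g, calbindin of absorptive cells, lower (-0.36 ± 0.06). The other fall in that list, S100pbp, is a binding protein and not an S100 protein (-0.39 ± 0.12), and its call was lost without AA replicate 1 and without vehicle replicate 2.

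Some genes known from other epithelia rose, among them weakly expressed ones. Among 37 stratified epithelium genes, 13 passed the filter on low counts, and 12 of these were at least 2-fold higher and 0 lower, with a sum over the tested members of 115 to 120 CPM with AA and 25.2 to 27.1 CPM with vehicle. A gene at or near 0 with vehicle could enter the test only through the groups in which it was expressed, so this count is a description and not support for a direction. Beside Dsg3 and Tgm1, Cnfn, a protein of the cornified envelope, had 1.59, 2.78 and 1.73 CPM with AA and 0.0714, 0 and 0.312 CPM with vehicle (log2 fold change 3.91 ± 0.48), and Tmem40 rose by 3.39 ± 0.28. Gastric and pyloric genes gave 8 rises and 1 fall among 18 tested of 24, and their sum was 303 to 306 CPM with AA and 118 to 124 CPM with vehicle. Of the 18, 9 had a mean below 1 CPM with vehicle, and the same limit holds for them. Psca, a surface antigen of stomach and bladder (2.83 ± 0.24), and Mucl3, a mucin-like gene (3.16 ± 0.24), rose, and Gkn3, a gastrokine, fell from a level near 1 CPM (-1.85 ± 0.47). The same weak expression holds for Tek, an endothelial receptor, at 1.45, 1.43 and 1.51 CPM with AA and 0.50, 0.384 and 0.859 CPM with vehicle, while Cdh5 and Kdr, which define endothelium, were at 0.

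Intestinal transcription factors were called in both directions, 9 higher and 13 lower of 30. Hnf4a, the main factor of enterocyte genes, chosen after its values were seen, fell slightly (636, 613 and 618 CPM with AA, 746, 778 and 759 CPM with vehicle, log2 fold change -0.29 ± 0.04). Cdx2, the factor of intestinal identity, fell by 0.32 ± 0.06 on the log2 scale. Larger falls were those of Esrrg, an orphan nuclear receptor (-1.33 ± 0.09), and Vdr, the vitamin D receptor, at 77.6, 71.4 and 69.9 CPM with AA and 136, 139 and 131 CPM with vehicle (-0.89 ± 0.08). Prdm1, a repressor of the fetal gut epithelium, rose (1.42 ± 0.30), as did Isx, a repressor of carotenoid uptake (1.02 ± 0.37), whose levels of about 1 CPM rest on few reads, and which was not called by limma-voom, nor without AA replicate 1 or 3 or vehicle replicate 1 or 3. Homeobox factors gave 3 rises and 5 falls of 12, with Pbx4 (1.34 ± 0.28) and Meis2 (0.45 ± 0.15) higher and Tgif2 (-0.93 ± 0.14) lower, and Six5 lower by a call lost without AA replicate 2 or 3. Genes named Zfp, mostly zinc finger repressors, gave 21 rises and 88 falls of 331. These shares of 6.34% and 26.6% compare with 19.5% called higher and 22.2% called lower over all genes tested, so the share that fell was near the background.

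**Figure D3:**
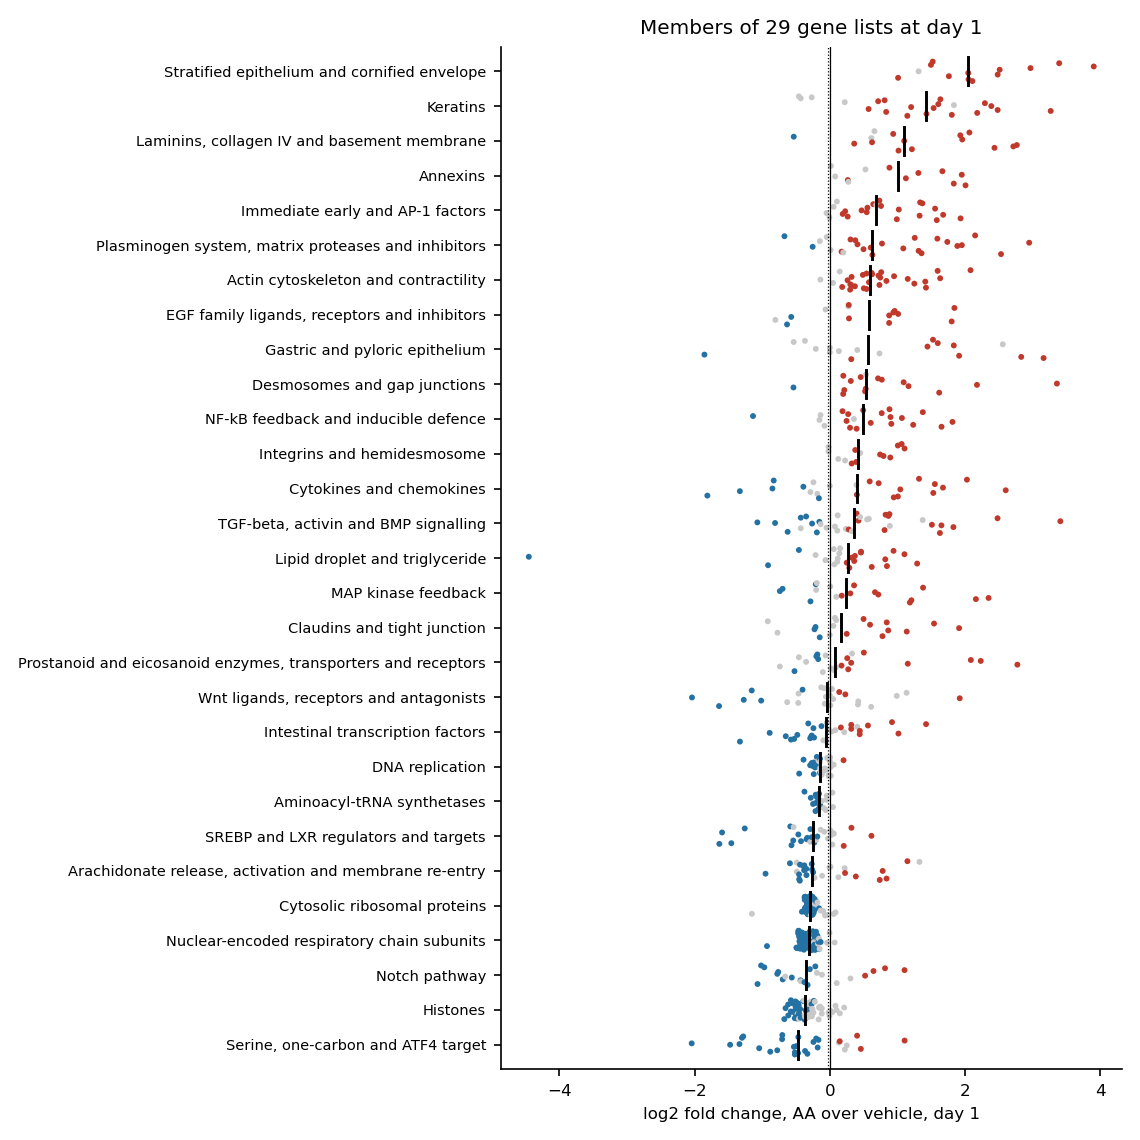
Each point is 1 tested gene of 1 of 29 gene lists, placed by its log2 fold change at day 1, AA over vehicle; red points were called higher, blue lower and grey not called, the black bar is the list's median, and the dotted line is the median over all genes tested (-0.03). Medians run from 2.05 for stratified epithelium at the top to -0.47 for serine, one-carbon and ATF4 genes at the bottom, and ribosomal and respiratory genes form narrow blocks at -0.29 and -0.31.

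Genes that handle AA itself did not move as 1 block. Among 29 tested genes of AA release, activation and membrane re-entry, 6 rose and 14 fell (median log2 fold change -0.26). Mboat1, a lysophospholipid acyltransferase, had 244, 243 and 255 CPM with AA, against 116, 107 and 112 CPM with vehicle (1.15 ± 0.05). Fabp1, the fatty acid carrier of enterocytes, had 136, 113 and 113 CPM with AA against 65.6, 66.6 and 70.0 CPM with vehicle (0.84 ± 0.08). Slc27a2, a very long chain acyl-CoA synthetase (-0.95 ± 0.07), and Pla2g16, a phospholipase (-0.59 ± 0.08), fell. So did Pla2g4a, the cytosolic phospholipase that releases AA (-0.44 ± 0.08), and Lpcat3, which puts it back into phospholipids (-0.45 ± 0.05), both chosen after their values were seen. In the prostanoid list 9 rose and 4 fell of 22. Ptgs2 led it. Of the 22, 6 had a mean below 1 CPM with vehicle. Slco2a1, the prostaglandin importer, rose to 4.07, 3.31 and 3.52 CPM with AA, against 1.57, 1.77 and 1.56 CPM with vehicle (1.15 ± 0.21), and Hpgd, the enzyme that inactivates prostaglandins, fell (-0.52 ± 0.14). The small fall of Ptges2 (-0.20 ± 0.07), a prostaglandin E synthase, was lost with DESeq2, without any 1 of the 3 AA libraries, without vehicle replicate 3 and in other settings.

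Lipid storage and lipid synthesis genes went opposite ways. Of 24 lipid droplet and triglyceride genes, 13 rose and 3 fell, with 2 of the rises and 1 of the falls at least 2-fold. The lowest log2 fold change in the list was -4.45, in a member not named here. Plin2, a droplet coat protein, had 63.6, 62.7 and 64.2 CPM with AA and 30.5, 27.1 and 30.9 CPM with vehicle (log2 fold change 1.10 ± 0.06). Cidec, a droplet fusion protein, rose by 1.29 ± 0.14, and Dgat2, which makes triglyceride, chosen after its values were seen, by 0.82 ± 0.06. Lpin1, a phosphatidate phosphatase, was lower at 16.2, 15.3 and 13.2 CPM with AA against 28.9, 30.9 and 24.3 CPM with vehicle (-0.91 ± 0.12), and Agpat3 fell by 0.46 ± 0.04. Of 30 regulators and targets of SREBP and LXR, the transcription factors of sterol and fatty acid synthesis, 3 rose and 15 fell, 4 of these at least 2-fold. Fads1 stood at 62.6, 64.2 and 64.3 CPM with AA, against 193, 197 and 203 CPM with vehicle. Fads2 (-1.26 ± 0.05), the factor Srebf1 itself (-0.54 ± 0.05) and Insig1, its sterol-sensing brake (-0.43 ± 0.05), fell and were chosen after their values were seen. Npc1, a lysosomal cholesterol exporter, rose (0.32 ± 0.07).

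Amino acid and one-carbon metabolism leaned lower. Of 29 serine, one-carbon and ATF4 target genes, 22 fell, 6 of them at least 2-fold, and 4 rose (median log2 fold change -0.47). Pck2, a mitochondrial gluconeogenic enzyme, had 47.2, 48.2 and 47.3 CPM with AA and 110, 115 and 127 CPM with vehicle (-1.30 ± 0.06). Cth, which makes cysteine, had 59.9, 56.8 and 59.3 CPM with AA against 121, 117 and 126 CPM with vehicle (-1.04 ± 0.06). The factor Atf4 and its target Asns, asparagine synthetase, each fell by 0.47 with an SE of 0.05. Those 4 were chosen after their values were seen. The rises in the list included Slc7a11, the cystine importer, at 261, 278 and 282 CPM with AA against 130, 133 and 119 CPM with vehicle (1.11 ± 0.05), and Cbs, which makes cystathionine (0.46 ± 0.11). Aminoacyl-tRNA synthetases gave 0 rises and 13 falls of 20, with Yars (-0.37 ± 0.05) and Iars (-0.28 ± 0.05) the largest. In polyamine and arginine metabolism 5 rose and 9 fell of 23: Sat1, which breaks down polyamines, rose (0.92 ± 0.06), as did the cystine and dibasic amino acid carrier subunit Slc7a9 (0.52 ± 0.08), while Cps1 and its activator-forming partner Nags, N-acetylglutamate synthase (-0.84 ± 0.09), fell. Glycolysis and hypoxia-responsive genes were split, 14 higher and 6 lower of 30, with Adm, adrenomedullin (1.67 ± 0.32), higher and Pdk1 (-0.72 ± 0.09), Car9 (-0.58 ± 0.08) and Vegfa, chosen after its values were seen (-0.83 ± 0.10), lower.

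Housekeeping machinery shifted by small amounts in 1 direction. Cytosolic ribosomal protein genes gave 0 rises and 74 falls of 85 (median log2 fold change -0.29), for example Rps20 at 546, 533 and 510 CPM with AA and 666, 670 and 778 CPM with vehicle (-0.41 ± 0.07). Subunits of the respiratory chain encoded in the nucleus gave 0 rises and 68 falls of 77 (median -0.31), such as Atp5k (-0.49 ± 0.08). Histone genes gave 0 rises and 34 falls of 65 (median -0.37), led by Hist1h2bf (-0.67 ± 0.09), with the caution that histone copies share reads. Splicing factors fell in 20 of 39 cases and rose in 0, including Hnrnph3 (-0.41 ± 0.08) and Hnrnpr (-0.32 ± 0.06). Ribosome biogenesis genes were mostly not called (0 higher, 3 lower of 41, with Fbl at -0.30 ± 0.06 and Npm1 at -0.23 ± 0.06), and neither were proteasome subunits (0 higher, 5 lower of 37), where the falls included the immunoproteasome subunits Psmb9 (-1.14 ± 0.31) and Psmb10 (-0.44 ± 0.07).

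The lists with the most falls differed in gene length. Exonic length, from GENCODE M21 for 99.9% of the genes tested, had a median of 1739 bases for the ribosomal protein list, 1718 for the respiratory list and 620 for histones, against 3891 over all genes tested. Splicing factors (5396) and aminoacyl-tRNA synthetases (4840), whose calls were falls too, were longer than that, as were the actin (5462) and basement membrane (8039) lists, which had mostly rises. Stratified epithelium genes (1922) and keratins (1958), also with rises, were shorter. All genes called higher and all called lower had median lengths of 4632 and 3991 bases. Over all genes tested the median log2 fold change was -0.11 for genes of up to 1000 bases, -0.07 for 1000 to 2000, -0.04 for 2000 to 4000, -0.03 for 4000 to 8000 and 0.02 for longer genes. The share called higher was 8.65% in the shortest class and 26.2% in the longest. The share called lower was 14.2% in the shortest class and 20.5% in the longest, so fewer of the shortest genes were called in either direction. Genes at least 2-fold higher and at least 2-fold lower had median lengths of 3554 and 3494 bases. Vehicle replicate 3 was the highest of the 6 libraries for Eef1a1, Rps20 and Hist1h2bf, while Eef1a1 stayed lower in each AA library than in each vehicle library. The part of length or library composition in the falls of these lists was not tested.

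**Figure D4:**
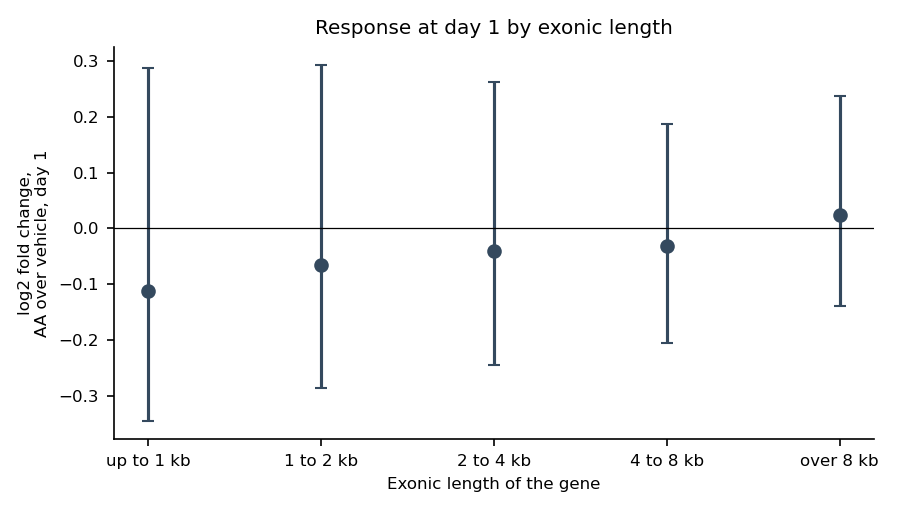
Points are the median log2 fold change at day 1, AA over vehicle, of the genes tested in 5 classes of exonic length, and bars reach from the 25th to the 75th percentile. The median runs from -0.11 in the shortest class to 0.02 in the longest, with bars that overlap across all 5 classes.

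Cell cycle genes changed little in size. Of 26 cyclins, CDK inhibitors and Myc genes, 9 rose and 7 fell (median 0.00), with the Myc antagonist Mxd1 (log2 fold change 1.13 ± 0.06) and Ccnd1, cyclin D1, at 416, 421 and 414 CPM with AA and 290, 297 and 316 CPM with vehicle (0.47 ± 0.05), higher and its partner Cdk4 (-0.62 ± 0.06) and the inhibitor Cdkn2c (-0.68 ± 0.10) lower. DNA replication genes gave 1 rise and 16 falls of 36, none of them 2-fold, among them the clamp loader subunits Rfc4 (-0.45 ± 0.07) and Rfc3 (-0.39 ± 0.08), while the origin licensing factor Cdc6 rose (0.20 ± 0.06). Nucleotide synthesis genes gave 2 rises and 12 falls of 26, with Adss (0.39 ± 0.04) higher and Tk1, thymidine kinase (-0.37 ± 0.06), lower. Of 24 p53 target genes 7 rose (29.2%) and 6 fell (25%), not far from the 19.5% and 22.2% over all genes tested. The kinase Plk2 (0.82 ± 0.07) and Pmaip1, a death-promoting protein (0.81 ± 0.07), rose, and Ddit4 (-0.71 ± 0.07) and Sesn1 (-0.28 ± 0.08), both inhibitors of mTOR signalling, fell.

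Transport genes were called in both directions. Of 241 solute carriers, 69 rose (28.6%) and 61 fell (25.3%), not far from the 19.5% and 22.2% over all genes tested. Slc9a4, a sodium-proton exchanger of stomach, had 45.1, 47.3 and 45.7 CPM with AA, against 9.21, 9.15 and 9.77 CPM with vehicle (log2 fold change 2.29 ± 0.08). Slc17a9, a vesicular nucleotide carrier, rose by 2.40 ± 0.22, and the mitochondrial carrier Slc25a35 fell (-1.37 ± 0.21). In the ion channel and fluid secretion list 12 rose and 9 fell of 35. The exchanger Slc9a2 (1.59 ± 0.06) and the glycerol channel Aqp3 (2.34 ± 0.31) rose, and the water channels Aqp4, at 30.2, 27.9 and 30.5 CPM with AA and 75.1, 77.8 and 81.6 CPM with vehicle (-1.402 ± 0.07), and Aqp1 (-0.69 ± 0.05), fell. Genes of the P450, glutathione transferase, UGT and sulfotransferase families gave 17 rises (22.4%) and 21 falls (27.6%) of 76, near the shares over all genes tested. Cyp2d34 (2.40 ± 0.35) and Sult4a1 (1.97 ± 0.35) were higher, and Cyp2e1 (-1.96 ± 0.35) and Cyp2u1 (-1.08 ± 0.13) lower. Copies within these families can share reads. Mucins and mucin glycosyltransferases gave 11 rises and 6 falls of 31: Gcnt1, which branches O-glycans, rose (1.94 ± 0.10), and Fut2 (-0.66 ± 0.17) and Galnt12 (-0.41 ± 0.09) fell. Of 35 lysosome and autophagy genes 15 rose and 9 fell, with the protease Ctsl (1.09 ± 0.06) and Map1lc3a (1.08 ± 0.24) higher and the sterol carrier Npc2 (-0.50 ± 0.06) and Wipi1 (-0.49 ± 0.11) lower. In the cAMP list, a pathway of some PGE2 receptors, 1 rose and 9 fell of 29, of which 7 had a mean below 1 CPM with vehicle. The rise was that of the kinase Sik1 (0.38 ± 0.07), and Creb3l1 (-0.89 ± 0.13) and Pkig, an inhibitor of protein kinase A (-0.67 ± 0.07), were lower. Clock genes gave 2 rises and 7 falls of 17, with Nr1d1 higher (0.48 ± 0.10), while the fall of Dbp (-0.89 ± 0.34) was lost with DESeq2, with limma-voom and without any 1 library other than vehicle replicate 1.

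The day 1 response was then set beside the AA responses at days 3 and 6, which have vehicle libraries of their own. The day 6 libraries differed in composition. Mitochondrial ribosomal RNA made up 0.00305% to 0.266% of their counts, against 6.74% to 10.3% in the libraries of days 1 and 3. Between day 6 and the earlier days, an effect of time cannot be told apart from this difference between the libraries. At day 3, 3143 genes were called higher (21.2%) and 2986 lower (20.1%) of 14850, and at day 6, 2237 higher (15.3%) and 2270 lower (15.5%) of 14663. Of the 836 genes at least 2-fold higher at day 1, 543 were called higher at day 3 (65.0%) and 16 lower, and 379 were again at least 2-fold higher. Those 379 are 45.3% of the day 1 genes and 59.9% of the 633 genes at least 2-fold higher at day 3. Of the 513 tested at day 6, 274 were called higher (53.4%), and 119 were at least 2-fold higher, 23.2% of the day 1 genes tested and 46.1% of the 258 such genes of day 6. Of the 233 genes at least 2-fold lower at day 1, 183 were called lower at day 3 (78.5%) and 0 higher, and 132 were again at least 2-fold lower, 56.7% of the day 1 genes and 25.9% of the 510 such genes of day 3. At day 6, 107 of 212 tested were lower (50.5%), 30 of them at least 2-fold, which is 14.2% of the day 1 genes tested and 21.7% of the 138 such genes of day 6.

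A direct test of the difference between the 2 responses, day 1 minus day 3, called 2668 of 14850 genes (18%). Of the 836 genes at least 2-fold higher at day 1 it called 295, of which 278 had the larger response at day 1, and of the 233 lower genes 38, of which 29 did. These genes were picked by their day 1 change, which enters the difference, so that lean is in part built in. Thbs1, thrombospondin of the wound matrix, changed direction. It had 102, 107 and 95.5 CPM with AA and 38.1, 37.2 and 37.0 CPM with vehicle at day 1 (log2 fold change 1.44 ± 0.06). Its log2 fold change was -1.52 at day 3 (difference 2.96, adjusted p = 3.1e-20). Edn1, the peptide endothelin, stood at 61.2, 58.3 and 64.5 CPM with AA, against 15.4, 13.1 and 16.6 CPM with vehicle at day 1 (2.03 ± 0.09), and at day 3 was not called (-0.06, difference 2.09). Samd4, an RNA-binding protein (2.54 at day 1, 0.46 at day 3), Dusp10 (2.16 and 0.49), Ptgs2 (2.78 and 1.13) and Chac1 (-1.47 and 0.17, day 3 not called) also had larger responses at day 1. Like these 6, the genes named next were called at least 2-fold at day 1 with a mean of at least 10 CPM in either group, a limit that leaves out larger differences such as those of Alpi (0.74 at day 1, 2.03 at day 3) and Isx (1.02 and 4.33). The genes whose response was smaller at day 1 included Slc40a1, the iron exporter (1.04 at day 1, 1.81 at day 3), Akr1b8, an aldo-keto reductase of a family with close copies (1.15 and 1.92), Ethe1, a sulfur dioxygenase (1.11 and 1.86), Slc51a, a bile acid exporter subunit (1.31 and 1.98), and Esrrg, which fell further at day 3 (-1.33 and -1.90). Muc3, a membrane mucin (1.17 and 2.00), passed at the edge (adjusted p = 0.0499) and was lost in most other settings.

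**Figure D5:**
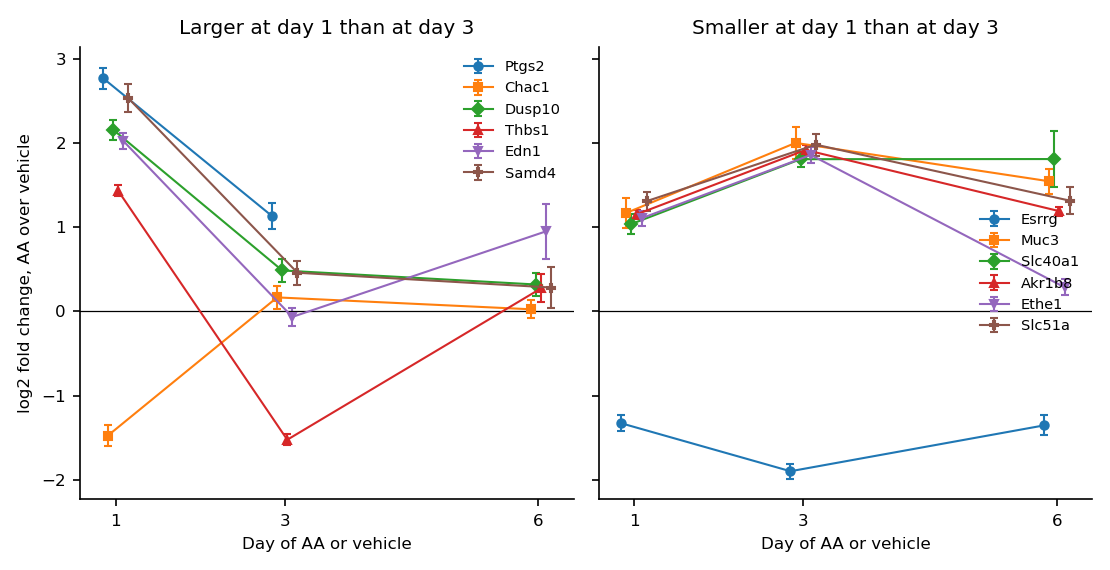
Log2 fold change, AA over vehicle, at days 1, 3 and 6 for the 6 genes with the largest excess of the day 1 response (left) and the 6 with the largest excess of the day 3 response (right), among genes called at least 2-fold at day 1 with a mean of at least 10 CPM in either group; bars are SE of the fitted value, and points are set slightly apart on the day axis. Predicted genes, pseudogenes and mitochondrial genes were left out. Thbs1 crosses the zero line between day 1 (1.44) and day 3 (-1.52), and Ptgs2 has no day 6 point because it was not tested there.

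By lists, the early signalling and skeleton genes had lower medians at day 3, while metabolic lists shifted upward. The median of the immediate early list was 0.69 at day 1 and 0.26 at day 3 (14 higher, 2 lower), and the response of 12 of its 23 genes differed between the days. The actin list went with it, 0.60 at day 1 and 0.34 at day 3 with 16 of 30 different, as did the basement membrane list, 1.10 and 0.48 with 8 of 15. Nuclear-encoded respiratory subunits were at -0.31 at day 1 and 0.03 at day 3 (9 higher, 2 lower), and 55 of 77 differed, while cytosolic ribosomal proteins were at -0.29 and -0.19 and 1 of 85 differed. The P450 and conjugation families had 17 rises at day 1 and 43 at day 3 (medians -0.01 and 0.42, 40 of 76 different), glycolysis and hypoxia genes 14 and 21 (0.17 and 0.46, 21 of 30), and serine, one-carbon and ATF4 genes 22 falls and 17 (-0.47 and -0.21, 19 of 29). Alpi, alkaline phosphatase of the enterocyte brush border, had 321, 308 and 299 CPM with AA and 188, 194 and 174 CPM with vehicle at day 1 (0.74 ± 0.07) and a log2 fold change of 2.03 at day 3.

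PGE2 at day 1 was compared with AA at day 1 directly, since the comparisons of each with vehicle share the same 3 vehicle libraries. AA and PGE2 libraries differed in 4119 of 14850 genes (27.7%). Of the 836 genes at least 2-fold higher with AA, 479 differed between the treatments, and PGE2 lay further from vehicle in 466 of them. The median log2 fold change of the 836 genes over vehicle was 1.56 with AA and 2.08 with PGE2, and that of the 233 lower genes was -1.26 with AA and -1.72 with PGE2, with 80 of the 233 different and PGE2 further in 74. Dsg3, for example, was at 53.7 CPM with AA, 120.0 CPM with PGE2 and 5.23 CPM with vehicle (AA over PGE2 -1.16 ± 0.06), and Cps1 at 528 CPM with AA, 82.9 CPM with PGE2 and 1187 CPM with vehicle (2.67 ± 0.07). The concentrations differ, 25 µM of AA and 50 nM of PGE2, so the sizes are not from matched doses. Lipid genes did not all keep this order. Fads1 did, at 63.7 CPM with AA, 38.0 CPM with PGE2 and 198 CPM with vehicle (AA over PGE2 0.75 ± 0.06). Scd2 did not, at 581 CPM with AA, 947 CPM with PGE2 and 1595 CPM with vehicle (AA over PGE2 -0.70 ± 0.07, adjusted p = 1.6e-08). Scd1 was lower with AA than with PGE2 by 0.42 ± 0.09, Srebf1 by 0.39 ± 0.05 and Lpin1 by 0.52 ± 0.12. Fabp1 stood at 121 CPM with AA, 18.04 CPM with PGE2 and 67.4 CPM with vehicle (AA over PGE2 2.74 ± 0.10). Nos2 was higher with AA than with PGE2 (33.9 CPM with AA, 21.2 CPM with PGE2 and 10.8 CPM with vehicle, 0.68 ± 0.09). The difference between AA and PGE2 was not called for Plat (0.19 ± 0.08), Plin2 (0.13 ± 0.06) or Itgb6 (0.12 ± 0.05).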

How the data were processed

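RNA-seq counts were deposited as raw read counts per gene in separate tables for days 1 and 3 and for day 6, and the counts deposited by the authors were used as they stand. Per the labels' protocols, total RNA was extracted with Trizol and made into strand-marking libraries (NEBNext Ultra II Directional). The submitters' processing notes name cutadapt, STAR, DESeq2 and limma 3.46 without their roles, and a human genome build, while the gene identifiers are mouse, so no coordinates were taken from the tables. No source used here states how reads were assigned to genes, with or without strand, or on which annotation. Of 55385 identifiers, 99.6% matched a gene name.

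Groups were taken from the labels. The 18 libraries of days 1 and 3 were fitted together with 1 mean per group by edgeR 4.0.16 (TMM, filterByExpr, robust quasi-likelihood, R 4.3.3), which kept 14850 genes with 12 residual degrees of freedom. The 8 libraries of day 6 were fitted on their own (14663 genes). A gene was called at an adjusted p (Benjamini-Hochberg over all genes tested) of 0.05, SE is that of the log2 fold change, and CPM values are scaled by TMM except in the marker sums. Alternatives were DESeq2 1.42.0, limma-voom 3.58.1, other scalings and filters, a replicate block, the 6 libraries alone, and each replicate left out in turn. The scripts were tested on simulated data.

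Genes named are the 12 largest rises and 12 largest falls at 10 CPM or more with groups that do not overlap, the 8 largest rises and falls in CPM, the 2 largest called rises and falls of each of 56 gene lists at 1 CPM or more, the 6 largest differences each way between days 1 and 3 among genes called at least 2-fold at day 1 at 10 CPM or more, and a panel of 10. The 12, 8 and 6 largest changes leave out predicted genes (Gm, Rik and clone names), pseudogenes and mitochondrial genes. Any other gene is named with the remark that it was picked after seeing its values. Some genes that this rule names, and 1 of the gene lists, are not reported here. Members and lists were chosen with earlier results of these data known.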

Additional observations from a re-analysis of the deposited data

Results flagged for a closer look

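The AA response differed between days 1 and 3 by a direct test (edgeR, adjusted over 14850 genes) for 18 genes among those with the largest differences and the panel, each value being the log2 response at day 1 minus that at day 3. The difference was 2.96 for Thbs1, 2.09 for Edn1, 2.08 for Samd4, 1.67 for Dusp10 and 1.64 for Ptgs2, genes that rose more at day 1. It was also above 0 for Ly6a (0.63), Plin2 (0.60), Clu (0.46) and Msln (0.27), and for Esrrg (0.57), which fell less at day 1. It was -1.64 for Chac1 and -0.94 for Scd2, which fell more at day 1. It was -1.29 for Alpi, -0.83 for Muc3, -0.77 for Slc40a1, -0.77 for Akr1b8, -0.75 for Ethe1 and -0.67 for Slc51a, which rose less at day 1. What lies behind these differences was not tested.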

How the results depend on the processing

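Counts of called genes stayed within 1.5 times of the reported ones in every alternative run. The number called was 5230 with DESeq2, 6333 with the replicate block and 5388 to 5694 when 1 AA or vehicle library was left out, against 6197. Same-numbered AA and vehicle libraries did not deviate together (correlations 0.03, -0.08 and -0.02), so the numbers were not taken as pairs. The share of calls that were higher was 46.7%, and ran up to 53.4% without the rRNA-like and mitochondrial genes. Of 4080 comparisons of a named gene with an alternative, 4026 kept direction and side of the threshold, 53 lost the call, 1 gained it and 0 reversed. The day 1 minus day 3 difference of Muc3 is at the threshold. Medians of the ribosomal protein list ran between -0.33 and -0.22, and those of the cyclin, ribosome biogenesis, proteasome, P450 and cAMP lists crossed 0. Depth limits genes near 1 CPM, such as Isx, Dbp and Six5.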
